A study of Rattus norvegicus with 3 samples.

Results

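The genes encoding the proteins of the cytosolic ribosome were examined in the retina of newborn rats after injection of streptozotocin (STZ), citrate buffer or saline into the eye. Members were the genes whose symbol is Rpl or Rps followed by a digit, together with Rplp0, Rplp1, Rplp2 and Rpsa, leaving out the Rps6k kinases. This gave 86 of the 18425 genes measured. The animals were Sprague-Dawley rats of wild-type genotype, and 1 µl was injected into the vitreous on postnatal day 1 (P1), with the retina taken at P4. The injected fluid was citrate buffer of pH 4.5 in the buffer group, saline in the saline group, and 10 µg of STZ prepared in citrate buffer in the STZ group. STZ is an alkylating nitrosourea that carries a glucose moiety. The buffer library is therefore the control that shares the vehicle of STZ, and the saline library differs from both in having no citrate. Each condition had 1 library of total RNA from dissected retina, and how many animals or retinas entered a library is not given in the sources used here. For its eye examinations the study put STZ into the right eye and buffer into the left eye of the same rat, and whether the buffer and STZ libraries also came from fellow eyes is not given.

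The cytosolic ribosome translates messenger RNA with a small subunit, which decodes the message, and a large subunit, which joins the amino acids. Its proteins are made in matched amounts, and their messages are among the most abundant in growing and dividing cells such as retinal progenitors. Many of these messages begin with a run of pyrimidines at their 5′ end, the TOP motif, through which the mTOR pathway controls their translation. Several of the proteins also act outside the ribosome when its assembly is disturbed.

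With 1 library per condition no test could be made between conditions, no p-value is given, and no difference has a replicate check. Each value below describes the libraries. A count ratio is the share of a library's reads on a gene divided by the same share in another library, given with a 95% interval by the exact Clopper-Pearson method. With 1 library per condition the intervals cover counting error only. The reads carried no molecular identifiers, so copies of a fragment count as separate reads and the intervals may be too narrow. Values of a gene in 3 libraries are given in the order buffer, saline, STZ. The totals were 21992701, 21977846 and 22031241 counts, so the depth was nearly equal.

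Of the 86 members, 75 encode core proteins of the ribosome, out of 79 in a hand-written list of the core proteins of both subunits. Fau carries a ribosomal protein under another symbol, and Rpl35a and Rpl39 were not analysed here. The other 11 members are 8 paralogs, which are Rpl10l, Rpl22l1, Rpl36al, Rpl39l, Rpl3l, Rpl7l1, Rps27l and Rps4y2, and 3 others. Rps10l1 is a pseudogene in RefSeq, Rpl30l1 is a copy of Rpl30, and Rps19bp1 encodes a protein that binds Rps19 and is in the set through its symbol alone. The counts of 52 members were whole numbers in all 3 libraries, and 34 members had a fractional count in at least 1 library. Whole counts were found for 15567 genes of the series. How the fractions arose is not given in the sources used here, so both kinds are reported apart. Core members with whole counts numbered 42, with 17 small-subunit proteins, 24 large-subunit proteins and the stalk protein Rplp0. Core members with fractional counts numbered 33, with 14 small-subunit proteins, 17 large-subunit proteins and the stalk proteins Rplp1 and Rplp2.

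All 75 core genes had a mean of more than 10 counts, although the row of Rpl30 held 2.81 in the saline library. The mean level over the 3 libraries, in FPKM (fragments scaled to transcript length and library size), ran from 234 for Rpl36a to 1601 for Rps23 among core members with whole counts, with a median of 934. The 5 highest of these were Rps23, Rpl21, Rps15, Rps2 and Rps21. Rps23 lies at the decoding centre of the small subunit, and its levels were 1677, 1656 and 1471 FPKM. Among the fractional members Rps29 stood highest at a mean of 2553 FPKM and the row of Rps19 lowest at 29.7. The mean count was at least 10 for 83 of the 86 members. The other 3 were Rpl39l with 8, 2 and 6 counts, Rpl3l with 6, 3 and 12, and Rpl30l1 with 0, 1 and 1.

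Ribosomal protein genes took a smaller share of the STZ library than of either control. The 86 members together held 2.48% of the reads in the buffer library (95% interval 2.47 to 2.49), 2.56% in the saline library (2.55 to 2.56) and 2.32% in the STZ library (2.32 to 2.33). For STZ the ratio of these shares was 0.936 against buffer (0.933 to 0.940) and 0.908 against saline (0.905 to 0.912), and saline stood at 1.03 of buffer (1.03 to 1.03). Members with whole counts held 1.65%, 1.70% and 1.55% of the reads, and members with fractional counts held 0.831%, 0.858% and 0.777%. Both kinds of row thus gave the order saline, buffer, STZ. The fractional share includes the row of Rpl30, with 2530.28, 2.81 and 104.36 counts. It leaves out further rows of Rpl30 and Rps19 that stand under other symbols and are given below. In bulk tissue, fewer cells rich in ribosomal protein messages and less of these messages per cell cannot be told apart.

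The lower share came from many genes, each with a small difference. Among the 42 core members with whole counts, 38 were lower in STZ than in buffer, where 49.6% of the 4988 whole-count genes with 1000 or more counts on average were. Against saline 41 of 42 were lower in STZ, beside 50.1% of those genes, and the comparison uses the same STZ library. Between the controls 10 of 42 were lower in saline than in buffer, beside 50.2%. The median count ratio was 0.929 in STZ against buffer, within a range of 0.818 to 1.07, and 0.898 in STZ against saline, within a range of 0.756 to 1.05. The interval lay below 1 for 29 of the 42 genes in STZ against buffer, where 30% of those 4988 genes did so, and above 1 for 3, where 30.2% did so. In STZ against saline the interval lay below 1 for 35 of the 42, beside 33.3% of those genes, and above 1 for 1, beside 33.9%. In the control comparison, saline against buffer, the interval lay above 1 for 24 of the 42, beside 18.9%, and below 1 for 2, beside 20.4%. The median ratio there was 1.04.

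**Figure D1:**
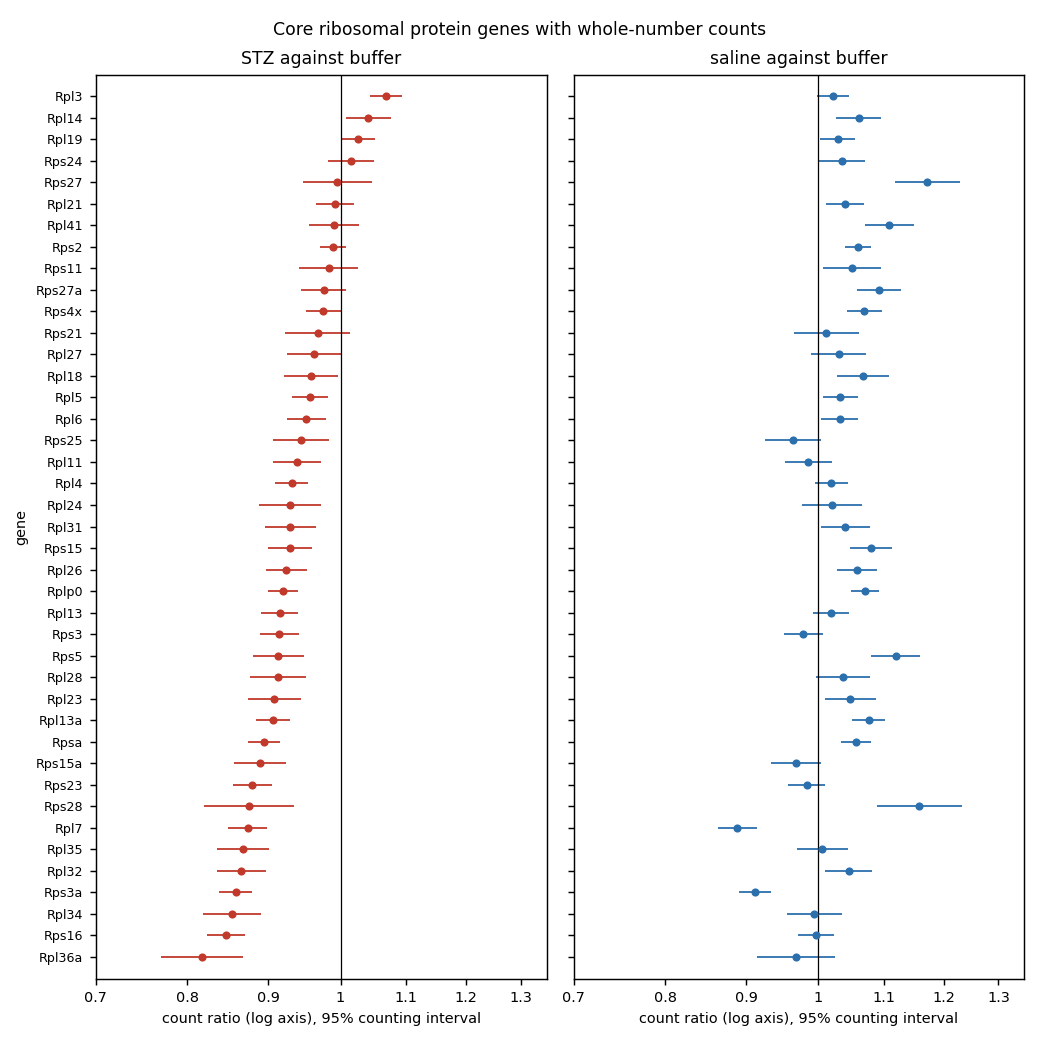
Count ratio of each of 41 core ribosomal protein genes with whole counts, in STZ against buffer (left, red) and saline against buffer (right, blue), on a log axis with genes ordered by the left panel. Points are ratios of library shares and lines are 95% counting intervals with 1 library per condition. In the left panel 37 of 41 points lie below 1, and the values run from 0.818 for Rpl36a to 1.07 for Rpl3, and in the right panel 31 lie above 1. The set holds 42 such genes, and values of the gene not shown are not reported here.

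No core member with whole counts passed the fold thresholds of the study, which are 1.54 and 0.65 on the ratio of FPKM + 1, in any of the 3 comparisons. Over all 86 members 1 was above and 2 were below the thresholds in STZ against buffer, where 2.25% and 1.04% of all genes were. In STZ against saline 1 member was above, beside 2.04% of all genes, and 0 were below, beside 1.75%. In saline against buffer 0 were above, beside 1%, and 4 were below, beside 0.429%. The members past a threshold were Rps19 and Rpl30, which have fractional counts, and the paralogs Rpl10l, Rps4y2 and Rpl39l. Among the 52 members with whole counts, 0 were above (background 2% of whole-count genes) and 1 below (0.758%) in STZ against buffer, 0 above (1.72%) and 0 below (1.58%) in STZ against saline, and 0 above (0.803%) and 3 below (0.141%) in saline against buffer. Among the 34 with fractional counts, 1 was above (background 3.6% of fractional-count genes) and 1 below (2.55%) in STZ against buffer, 1 above (3.78%) and 0 below (2.66%) in STZ against saline, and 0 above (2.1%) and 1 below (1.99%) in saline against buffer. The median log2 fold of FPKM + 1 over the 83 members that reached a mean of 10 counts was -0.10 for STZ against buffer and -0.13 against saline, and 0.05 between saline and buffer. Over the 14885 genes with that mean the medians were 0.03, 0.01 and 0.02. Whole-count genes of high level that are not members, 210 in number with a mean of at least 200 FPKM, had medians of 0.02, 0.05 and -0.02. Of these genes 43.8% had a count ratio below 1 for STZ against buffer and 36.7% against saline, and 62.9% had one between saline and buffer. In each comparison the majority of these genes thus lay on the other side of 1 from the majority of the members.

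**Figure D2:**
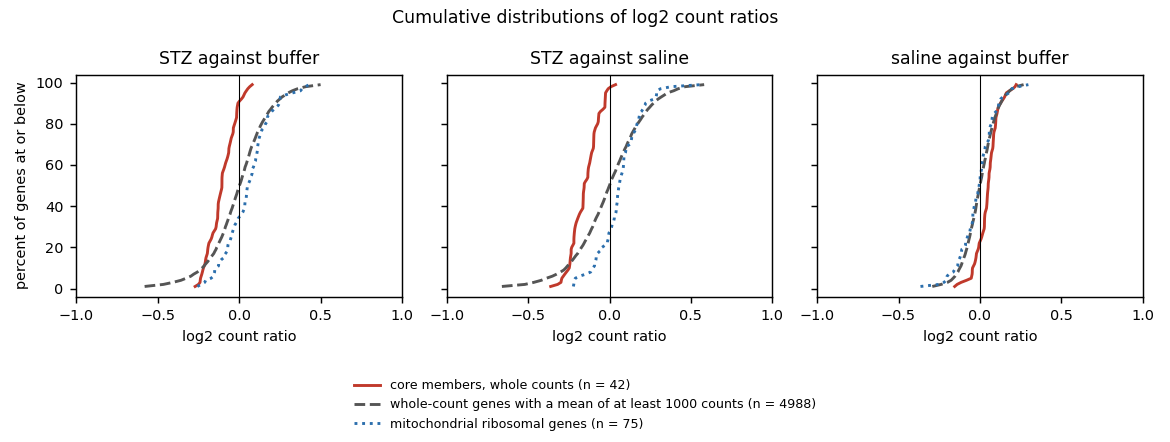
Cumulative percent of genes against log2 count ratio in the 2 STZ comparisons (left, middle) and between the controls (right), for 42 core ribosomal protein genes with whole counts (red), 4988 whole-count genes with 1000 or more counts on average (dashed grey) and 75 mitochondrial ribosomal genes (dotted blue). The red curve lies left of 0 for most genes in both STZ panels, with medians of -0.11 and -0.16, and right of 0 in the control panel, with a median of 0.05.

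Both subunits gave nearly the same values. In the small subunit 16 of 17 core genes with whole counts had a lower share in STZ than in buffer and 17 of 17 than in saline, and in the large subunit 21 and 23 of 24. The summed share of the small-subunit genes had a ratio of 0.928 in STZ against buffer (0.921 to 0.935) and that of the large-subunit genes 0.941 (0.935 to 0.947). The relation of the ratios to transcript length and level was weak. Across the 42 genes, which share their libraries, Pearson's r of the log2 ratio in STZ against buffer was 0.10 with length and 0.08 with mean FPKM. With length it was 0.28 in STZ against saline and -0.22 between the controls, and with mean FPKM -0.02 and 0.12. The shorter and the longer 21 genes had median ratios of 0.929 and 0.931 in STZ against buffer and of 0.893 and 0.914 in STZ against saline.

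Among small-subunit genes with whole counts the lowest ratio in STZ against buffer was that of Rps16. Rps16, which lies at the head of the small subunit beside the P site, had 10919, 10874 and 9257 counts, so both controls held nearly the same value and STZ was lower. Its ratio was 0.846 in STZ against buffer (0.823 to 0.870) and 0.997 in saline against buffer. Rps28, a small protein near the exit of the messenger RNA channel, had 1934, 2239 and 1696 counts. The saline library was the high one here, with ratios of 0.756 in STZ against saline (0.709 to 0.805), 0.875 in STZ against buffer and 1.16 in saline against buffer. Rps27, a zinc finger protein, had 3141, 3679 and 3132 counts, so that saline alone stood apart. Its ratio was 0.995 in STZ against buffer (0.947 to 1.05) and 1.17 in saline against buffer.

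Rps2 and Rpsa are neighbours in the small subunit. Rpsa, which is also known as the laminin receptor precursor, had 15218, 16067 and 13630 counts and a ratio of 0.894 in STZ against buffer (0.874 to 0.915). Rps2 had 20970, 22194 and 20779 counts, and its ratio of 0.989 in STZ against buffer had an interval that includes 1 (0.970 to 1.01). Rps3, at the messenger RNA entry site, had 9881, 9658 and 9053 counts with a ratio of 0.915, and both controls lay above STZ. Rps4x, the X-linked form of a small-subunit protein, had 11732, 12535 and 11461 counts, and saline again was the high library. Rps15 had 8029, 8662 and 7473 counts, with ratios of 0.929 in STZ against buffer and 0.861 in STZ against saline. Rps21 had 3516, 3555 and 3407 counts, and its interval in STZ against buffer includes 1 (0.923 to 1.01). Rps27a is made as a fusion with ubiquitin, and its counts were 7155, 7809 and 6994.

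In the large subunit Rpl36a had the lowest ratio of all core members with whole counts in STZ against buffer, with 2425, 2345 and 1986 counts and a ratio of 0.818 (0.770 to 0.868). Against saline its ratio was 0.845 (0.795 to 0.897), so the STZ value lay below both controls by more than counting error. Rpl7 gave another picture, with 10327, 9170 and 9038 counts. Buffer was the high library, since saline and STZ differed by less than counting error at a ratio of 0.983 (0.955 to 1.01), and saline stood at 0.889 of buffer (0.864 to 0.914). Rpl21 had 10094, 10481 and 10025 counts with a ratio of 0.991 in STZ against buffer. Rpl3, which reaches the peptidyl transferase centre, was the only core member with whole counts that was highest in STZ. Its counts were 13555, 13836 and 14509, with ratios of 1.07 against buffer (1.04 to 1.09) and 1.05 against saline (1.02 to 1.07). Rplp0, the base of the stalk that recruits the elongation factors, had 17529, 18744 and 16144 counts and a ratio of 0.919 in STZ against buffer (0.900 to 0.939).

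Rpl5, Rpl11, Rpl23 and Rpl26 of the large subunit and Rps7, Rps14 and Rps27a of the small subunit are known to bind Mdm2, the ubiquitin ligase of p53, and to raise p53 when ribosome assembly is disturbed. None of these 7 genes had a ratio above 1 in STZ against buffer. They were picked by hand and are not a full list, so they do not stand for all such proteins. Members outside the 7 with a ratio above 1 include Rps27l (1.25), Rps20 (1.02, with an interval that includes 1) and the fractional row of Rps26 (1.25). Most core members were below 1 in STZ against buffer, 38 of 42 with whole counts and 23 of 33 with fractional counts. Rpl5 and Rpl11 form a particle with the 5S RNA before they join the ribosome. Rpl5 had 11449, 11815 and 10970 counts with a ratio of 0.956 (0.932 to 0.982). Rpl11 had 6547, 6446 and 6157 counts with a ratio of 0.939 (0.907 to 0.972). Both were lower in STZ than in either control by a small amount. Rpl23 had 5511, 5770 and 5014 counts with a ratio of 0.908 (0.874 to 0.944). Rpl26, which also binds the messenger RNA of p53, had 8786, 9286 and 8133 counts with a ratio of 0.924 (0.896 to 0.952). The ratio was 0.976 for Rps27a (0.944 to 1.01), whose interval includes 1. Among rows with fractional counts, Rps7 had a ratio of 0.938 and Rps14 of 0.922.

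Rpl24 and Rpl38 are known from mouse mutants with patterning defects of the skeleton. Rpl24, whose mutation also affects the eye in the mouse, had 3952, 4027 and 3680 counts with a ratio of 0.930 in STZ against buffer (0.888 to 0.972). Rpl38, a fractional row, had 2768.87, 2536.64 and 2535.54 counts. Saline and STZ gave nearly the same value for Rpl38 and buffer was higher, with a ratio of 0.914 in STZ against buffer and 0.917 in saline against buffer.

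The start sites of the members were read from RefSeq promoter sequences of the assembly GRCr8, because pyrimidines at the start are what marks TOP messages. Each window holds 15 bases before the annotated start and 15 bases from it on. The longest run of C and T was sought only on the strand that reads like the RNA. A run is a description of these letters, not a start mapped in these retinas. A single window was found for 65 members. Among 55 core members the median longest run was 10 bases, and 38, or 69.1%, had a run of at least 8. Among 10 members that are not core the median was 4.5 bases and 2 had such a run. Such a run was found in 11.4% of all 33469 RefSeq promoters, with a median run of 4. The capitals in the windows below mark the longest run. The core genes Rpl34, Rpl35, Rps23 and Rps2 show long runs, and Rps16 and Rpl36a are shown because their ratios were among the lowest.
Rpl34 at chr2:221962269-221962298 (−): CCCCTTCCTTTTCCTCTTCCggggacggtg
Rpl35 at chr3:43165907-43165936 (−): cgCCCCTTCCTCTTTCTCTCgaaccgggcg
Rps23 at chr2:23814502-23814531 (+): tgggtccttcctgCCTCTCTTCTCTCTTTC
Rps2 at chr10:14251833-14251862 (+): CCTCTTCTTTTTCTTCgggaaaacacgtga
Rps16 at chr1:92770643-92770672 (+): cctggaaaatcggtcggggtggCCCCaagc
Rpl36a at chrX:102059434-102059463 (+): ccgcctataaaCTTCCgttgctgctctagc

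Core genes with long and with short runs had nearly the same ratios. The run could lie partly or wholly before the annotated start, so these groups do not separate TOP messages from others. The 22 core members with whole counts and a run of at least 8 bases had a median ratio of 0.924 in STZ against buffer, within a range of 0.854 to 1.04. The 12 with a shorter run had a median of 0.934, within a range of 0.818 to 1.07. Rpl34, with a run of 20 bases, had 4761, 4729 and 4073 counts, and Rps16, with a run of 4 in its window, had nearly the same ratio in STZ against buffer, at 0.854 and 0.846.

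The paralogs Rps27l, Rpl22l1 and Rpl36al had ratios above 1 in STZ against buffer, where their core genes had ratios of 0.995 (Rps27), 0.855 (Rpl22) and 0.818 (Rpl36a). Of the 49 members with whole counts that reached a mean of 10 counts, core genes included, 6 had an interval above 1 in STZ against buffer, where 26.7% of such genes did, and 31 below, where 18.8% did. In STZ against saline 4 lay above, beside 27.1%, and 35 below, beside 23.6%. Saline against buffer gave 24 above, beside 15.6%, and 4 below, beside 11.4%. The 4 above in STZ against saline were the core gene Rpl3 and the paralogs Rps27l, Rpl22l1 and Rpl36al. Their windows show the contrast with the core genes Rps27 and Rpl22, which have runs of 9 and 15 bases where Rps27l and Rpl22l1 have 3 and 4, while Rpl36al has a run of 10 and Rpl36a, shown above, of 5.
Rps27 at chr2:177964592-177964621 (−): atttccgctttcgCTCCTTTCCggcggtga
Rps27l at chr8:76443643-76443672 (+): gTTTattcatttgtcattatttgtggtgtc
Rpl22 at chr5:168117946-168117975 (+): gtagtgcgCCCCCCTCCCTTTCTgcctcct
Rpl22l1 at chr2:113683181-113683210 (+): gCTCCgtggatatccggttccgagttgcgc
Rpl36al at chr6:93392244-93392273 (−): tccgacttccgctccatccgTCCCTTTCCT

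Rps27l, a known target gene of p53, had 942, 916 and 1179 counts. Both controls lay close together and STZ was higher, with ratios of 1.25 against buffer (1.15 to 1.36) and 1.28 against saline (1.18 to 1.40). On the FPKM scale Rps27l made up 6.92%, 5.77% and 8.52% of the sum of Rps27 and Rps27l. Rpl22l1 is the paralog of Rpl22, a protein whose loss is known to raise Rpl22l1. Rpl22l1 had 567, 612 and 835 counts, with ratios of 1.47 against buffer (1.32 to 1.64) and 1.36 against saline (1.22 to 1.51), the highest of all members with whole counts and 50 or more counts on average. The row of Rpl22, which is fractional, had 2109.63, 1928.49 and 1808.46 counts and a ratio of 0.855 in STZ against buffer (0.803 to 0.911). Rpl22l1 thereby made up 15.3%, 17.6% and 23.7% of the summed FPKM of the pair.

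Rpl36al had 1067, 1082 and 1202 counts, with ratios of 1.12 against buffer and 1.11 against saline, beside 0.818 and 0.845 for Rpl36a. Rpl36al made up 41.0%, 42.1% and 48.9% of the summed FPKM of the pair. Their messages are closely similar, so the split of reads between Rpl36a and Rpl36al is uncertain although both have whole counts. Rpl7l1, a paralog of Rpl7 that acts in making the large subunit, had 3841, 3879 and 3717 counts, and its interval in STZ against buffer includes 1 (0.923 to 1.01). Rps19bp1 had 234, 237 and 248 counts, which do not differ beyond counting error.

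Rpl10l and Rps4y2 were the paralogs that were high in the buffer library. Rpl10l, a copy of Rpl10 known from the testis, had 86, 46 and 42 counts. Its ratio was 0.488 in STZ against buffer (0.329 to 0.713) and 0.535 in saline against buffer, so that saline and STZ stood together. Rps4y2 had 106, 57 and 65 counts, with ratios of 0.612 in STZ against buffer (0.442 to 0.841) and 0.538 in saline against buffer. These values are below 1% of the FPKM of Rpl10 and Rps4x in every library. The fold threshold was passed by both genes in saline against buffer and by Rpl10l alone in STZ against buffer.

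**Figure D3:**
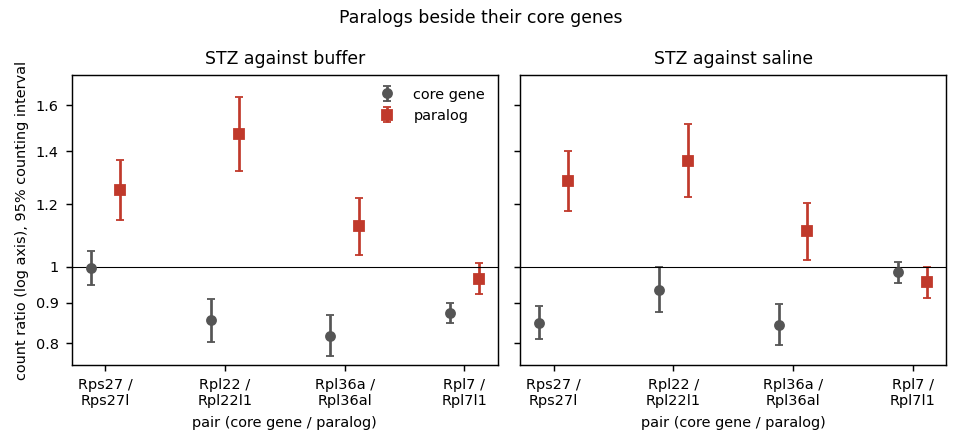
Count ratios of 4 paralogs (red squares) and their core genes (grey circles) in STZ against buffer and STZ against saline, on a log axis with 95% counting intervals. Rps27l, Rpl22l1 and Rpl36al lie above 1 in both panels, from 1.11 to 1.47, and Rpl7l1 lies at 0.966 and 0.956. The values of Rpl22 come from fractional counts, and those of the other genes from whole counts.

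Among the 33 core members with fractional counts, 23 had a lower share in STZ than in buffer and 31 than in saline. The interval lay below 1 for 18 in STZ against buffer, beside 31.1% of 691 fractional genes with 1000 or more counts on average, and for 25 in STZ against saline, beside 36.3%. It lay above 1 for 4, beside 26.5%, and for 2, beside 30.5%. In saline against buffer it lay above 1 for 17, beside 21.7%, and below 1 for 5, beside 22.9%. The median ratios of STZ were 0.941 against buffer and 0.929 against saline, and that of saline against buffer was 1.04, close to those of the members with whole counts. The spread was wider. The SD of the log2 count ratio over these genes was 0.820, 0.925 and 1.71 in the 3 comparisons, against 0.0882, 0.0933 and 0.0774 over the 42 members with whole counts.

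The row furthest from 1 in each comparison was that of Rpl30, which has a copy elsewhere in the table. RefSeq names 51 rows as copies of 27 of the 33 genes, found through the gene identifiers of the deposited table. Most of these genes thus have a copy whether or not their ratio lay far from 1. Copies were not sought for members with whole counts. Rpl30 had 2530.28 counts in buffer, 2.81 in saline and 104.36 in STZ, a ratio of 0.0410 in STZ against buffer (0.0334 to 0.0499) and of 0.00119 in saline against buffer (0.000245 to 0.00347). Its copy Rpl30l2, listed under another symbol in the table, had 2405.72, 4601.19 and 3952.64 counts, high where Rpl30 was low. The sum over Rpl30 and its copies was 4936, 4605 and 4058 counts, with ratios of 0.821 (0.787 to 0.856) in STZ against buffer and 0.934 in saline against buffer. Calls made on the row of Rpl30 alone are thus not held by the sum.

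Rps19, whose mutation causes a failure of red cell formation in people, showed the same in a milder form. Its own row had 162.44, 196.89 and 291.03 counts and a ratio of 1.79 in STZ against buffer (1.47 to 2.19), past the fold threshold. A second row that RefSeq also names Rps19 had 7448.56, 7969.11 and 6368.97 counts. The sum was 7611, 8166 and 6660 counts, with ratios of 0.874 in STZ against buffer (0.845 to 0.903), 0.814 against saline and 1.07 between the controls. The direction of the own row was turned by the sum. Rps26 had 857.19, 1166.45 and 1070.15 counts with a ratio of 1.25 in STZ against buffer (1.14 to 1.37), and summed with its copies, which include the pseudogene Rps26-ps11, it had 3223, 3207 and 3170 counts and a ratio of 0.982. Rps9 was listed in 2 rows with identical values of 4203.5, 4051 and 3965 counts.

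Summed with their copies, the 33 genes had median ratios of 0.938, 0.918 and 1.04, with SDs of the log2 ratio of 0.118, 0.105 and 0.0850. The sums were formed after the values of the rows had been seen. Rps6, the small-subunit protein that is phosphorylated by the S6 kinases, then had the lowest ratio in STZ against buffer. Its counts were 1840.49, 1664.54 and 1378.97, with ratios of 0.748 in STZ against buffer (0.697 to 0.803), 0.826 against saline and 0.906 between the controls. No copy row of Rps6 was found by name, and RefSeq names were matched for 17120 of the 18425 rows. The mean level of Rps6 was 130 FPKM, where the median of fractional small-subunit genes was 853. Whether reads of Rps6 lie in other rows was not tested. The stalk proteins Rplp1 and Rplp2 are partners of Rplp0 and differed from each other. Rplp1 had 8337.70, 8635.83 and 8580.75 counts with a ratio of 1.03 in STZ against buffer (0.997 to 1.06), and Rplp2 had 3733.87, 3938.19 and 3280.71 counts with a ratio of 0.877 (0.837 to 0.920). Rpl10, which completes the large subunit in the cytoplasm, had 7611.90, 7830.37 and 7649.73 counts and did not differ between STZ and buffer beyond counting error (0.972 to 1.04). Rps10l1 had 1291.98, 1352.75 and 1142.37 counts with a ratio of 0.882.

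**Figure D4:**
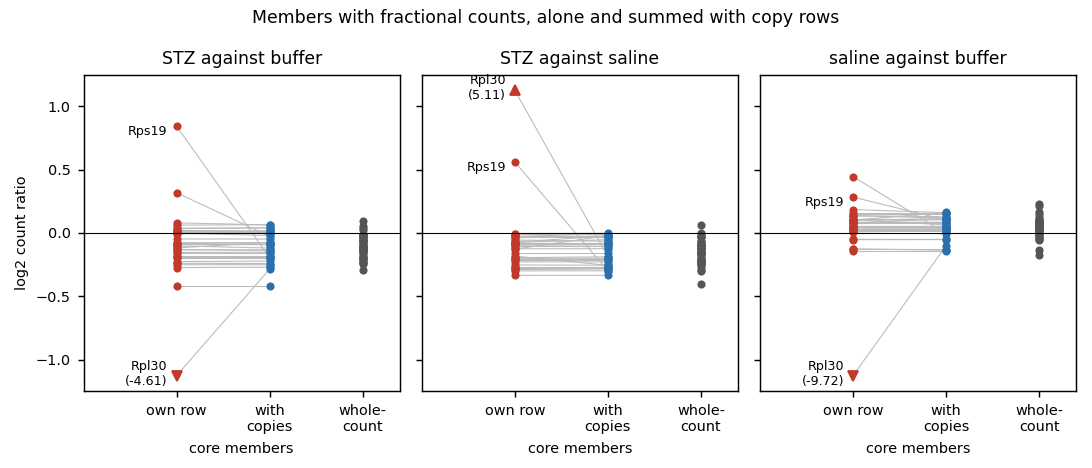
Log2 count ratios of 33 core members with fractional counts, from their own row (red) and summed with rows RefSeq names as copies (blue, joined by grey lines), beside the 42 core members with whole counts (grey), in 3 comparisons. Triangles mark own rows outside the axis, with the value printed. As own rows Rpl30 lies apart in each comparison and Rps19 in the STZ comparisons, while in saline against buffer Rps26 lies above Rps19. As sums Rpl30 and Rps19 fall within the range of the other genes.

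The other genes of the translation apparatus, taken from hand-written lists, were set beside the members. Fau, which carries a small-subunit protein under another symbol, had 5791.50, 6211.05 and 5416.39 counts and a ratio of 0.933 in STZ against buffer, close to the median of the set. Rack1, a scaffold protein on the small subunit, had 11255, 12002 and 11257 counts, so that only saline stood apart.

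The proteins of the mitochondrial ribosome, 75 genes that reached a mean of 10 counts, had medians on the other side of 0 from the cytosolic set in the STZ comparisons. Their median log2 fold of FPKM + 1 was 0.05 in STZ against buffer and 0.06 in STZ against saline, and 49 of 75 lay above 1 in STZ against buffer, where 56% of all 14885 genes with that mean did. Of these genes 1 was past a threshold, Mrpl1 in STZ against saline, a fractional row with 53.79, 35.29 and 66.94 counts. In STZ against buffer the median was 0.03 over 13 elongation and termination factors, -0.04 over 37 initiation factors, -0.06 over 49 ribosome biogenesis factors, -0.02 over 24 subunits and cofactors of RNA polymerases I and III, and -0.01 over 20 mTOR and S6 kinase genes. None of these 5 lists had a gene past the thresholds in any comparison. Eef1a1, which brings the aminoacyl-tRNA, had 107010, 113485 and 102372 counts with a ratio of 0.955. Eef2, which moves the ribosome along the message, had 38071, 38530 and 34180 counts with a ratio of 0.896, and Tpt1, another abundant TOP message, had 14502, 16040 and 12937 counts with a ratio of 0.891. The nucleolar proteins gave values on both sides of 1. Ncl had 12237, 11970 and 11457 counts with a ratio of 0.935, and Npm1 had 8170, 8436 and 9114 counts with a ratio of 1.11.

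**Figure D5:**
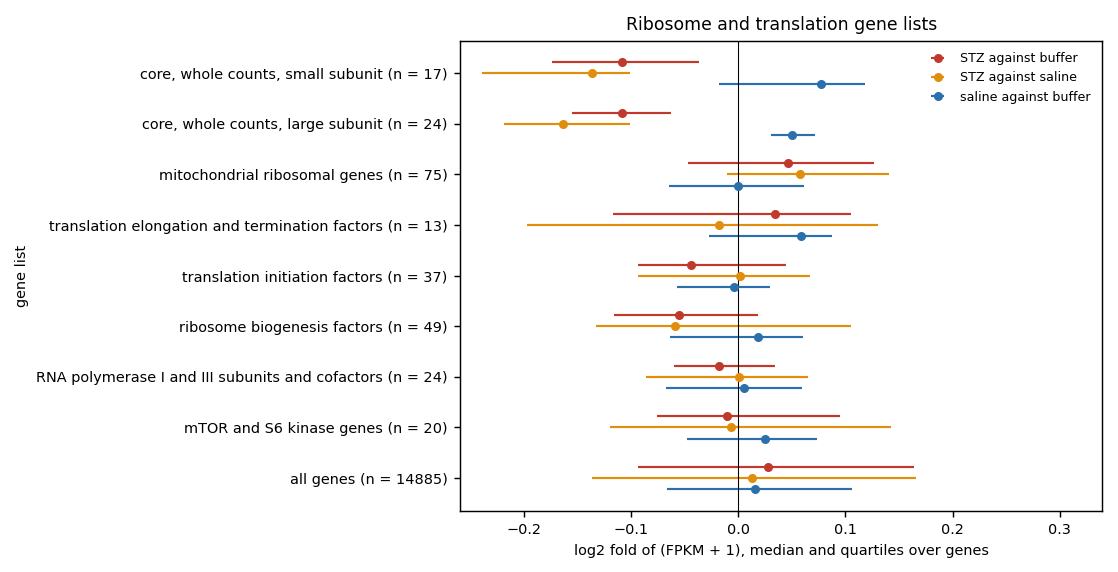
Median (points) and quartiles (lines) of the log2 fold of FPKM + 1 over the genes of each list that reached a mean of 10 counts, with STZ against buffer in red, STZ against saline in orange and the control comparison in blue. Both subunits of the cytosolic ribosome lie left of 0 in the STZ comparisons, at -0.11 and -0.11 in STZ against buffer and -0.14 and -0.16 in STZ against saline. The mitochondrial ribosomal genes lie right of 0 at 0.05 and 0.06.

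Marker genes of the cell types that the dissected tissue could hold also differed between the libraries. Summed markers of retinal progenitors, 11 found of 12, held 1498, 1576 and 1325 CPM (counts scaled to library size). Markers of retinal neurons, 12 of 12, held 2360, 2187 and 2510. Both lists were present in every library. Markers of microglia (15 genes) held 89.1, 107 and 230 CPM, those of lens (17 genes) 18.1, 39.9 and 199, those of pigment, ciliary and iris epithelium (13 genes) 461, 759 and 396, and those of vessels and blood (10 genes) 673, 748 and 494. The sums of progenitors, of pigment, ciliary and iris epithelium, and of vessels and blood had the order of the ribosomal share, saline highest and STZ lowest. Those of neurons, microglia and lens were highest in STZ. Not all genes of a list shared the order of its sum. In STZ against buffer 6 pigment, ciliary and iris epithelium genes with a mean of 10 counts had a fold below 1 and 4 above. In saline against buffer 5 such vessel and blood genes were below 1 and 3 above. For progenitors 10 genes were below 1 and 1 above in STZ against buffer. For neurons 9 genes were above 1 and 3 below in STZ against buffer, and 9 and 3 in STZ against saline. The part of any of these cell types in the ribosomal protein values was not tested.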

How the data were processed

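RNA from P4 retinas of 3 groups (buffer, saline, STZ; 1 library each, grouped by the treatment label) had been sequenced on a HiSeq after TruSeq preparation. According to the study's methods and the processing notes of the submitters, read quality was assessed with FastQC, reads were trimmed and mapped with TopHat2 to rn6, and reads with several locations were discarded. The authors deposited an FPKM, a TPM and an estimated count for each of 18425 genes and library. The deposited TPM values entered no result. Of the estimated counts as deposited, 12.9%, 13.2% and 13.1% of the values were fractional in the buffer, saline and STZ libraries, and all were rounded to whole numbers before shares and intervals were computed. The series table and each library's own table were checked and do not differ.

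The fold was (FPKM + 1)/(FPKM + 1), with the thresholds 1.54 and 0.65 of the study's methods. A count ratio is the ratio of 2 library shares with an exact Clopper-Pearson 95% interval. Medians were taken over genes that reached a mean of 10 counts. No count model was fitted, since there were no replicates, and TMM factors (edgeR 4.0.16) and median-of-ratios factors (DESeq2 1.42.0, R 4.3.3) were used as alternative scalings only. Further settings tried were thresholds of 2 and 0.5, a pseudocount of 0.1, filters on low counts, CPM computed from the counts, members with whole counts alone, and the core proteins alone.

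Genes named were every member past a threshold with a mean of at least 10 counts, the 5 highest and 5 lowest ratios in STZ against buffer and the 2 highest and 2 lowest in the other comparisons among members with whole counts and a mean of at least 50 counts, the 5 highest by mean FPKM among members with whole counts, the stalk proteins with Rpsa, the paralog pairs, 12 members with a known role outside or during ribosome assembly, and in other lists those past a threshold and at most 4 of high count. Rpl34, Rpl35, Rps26, Rps29, Rps9 and Rps10l1 were named after their values had been seen. Values of some single genes covered by the rule are left out, while the counts and sums include them. The members and the lists were chosen with earlier results of these data known. Identifiers were matched to RefSeq of the assembly GRCr8 for 83 of 86 members, for names of copies, and promoter sequences of GRCr8 were matched by symbol for 66 members, of which Rps27a has more than 1 start and was left out. No genome of rn6 was used here. The calculations were tested on simulated data. Python 3.11.15 with numpy 2.4.6, pandas 2.3.3, scipy 1.17.1 and matplotlib 3.10.9 was used.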

Additional observations from a re-analysis of the deposited data

How the results depend on the processing

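Of the values that answer a comparison, 53 kept their direction with little change in size under the alternatives and 19 moved, none by a change of sign. The count of members past the thresholds in STZ against buffer went from 1 above to 3 with a pseudocount of 0.1 and to 0 with thresholds of 2 and 0.5 or with whole-count members alone, and from 2 below to 1 in each of the last 2 settings. In STZ against saline it went from 1 above to 4 with a pseudocount of 0.1 and to 0 with whole-count members alone. In saline against buffer it went from 0 above to 1 with a pseudocount of 0.1, and from 4 below to 1 with thresholds of 2 and 0.5. The median log2 fold of the members in STZ against buffer went from -0.10 to -0.144 with TMM factors and -0.142 with median-of-ratios factors, and in saline against buffer from 0.05 to 0.0317 and 0.0344. With these factors 40 of the 42 core members with whole counts, in place of 38, lay below 1 in STZ against buffer, and 41 of 42 in STZ against saline as before. The share of the members was 1.65%, 1.70% and 1.55% with whole-count members alone and 2.94%, 3.03% and 2.75% (buffer, saline, STZ) over the totals of whole-count genes.

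Some medians of other lists near 0 changed sign with TMM and with median-of-ratios factors. These were elongation and termination factors in STZ against buffer (-0.00608 and -0.00355), initiation factors in STZ against saline (-0.0164 and -0.0166), biogenesis factors in saline against buffer (-0.00417 and -0.00150), and RNA polymerase I and III genes in STZ against saline (-0.0159 and -0.0161) and in saline against buffer (-0.0170 and -0.0143). The ratios of named genes under their alternatives gave 334 values within the interval and 17 outside it. A ratio near 1 can cross to the other side of 1 within its interval, and such crossings were not counted. The cause of these moves was not tested, beyond the construction of each alternative. With 1 library a condition, none could be left out. No paired analysis was possible because each condition has 1 library and the labels carry no replicate numbers or animals. The depth of about equal totals gives intervals of a few percent for most core members. They are wide for the rows of Rpl30 and Rps19, for Rpl10l and Rps4y2, and for the 3 members under 10 counts.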
